A study of Mus musculus with 3 samples.

Results

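The 39 genes of the mouse Hox clusters were followed in a small cell lung cancer line in which Kdm1a was targeted, and in its control. Members were the rows of the deposited expression table whose symbol is Hox, a cluster letter from a to d and a paralogue number, which gave 39 of 24523 genes: 11 in HoxA, 10 in HoxB, 9 in HoxC and 9 in HoxD. The labels describe the cells as mouse SCLC line 3. They were infected with a lentiviral CRISPR vector carrying guide sg1 or guide sg2 against Kdm1a (Kdm1a knock-out, 1 library per guide, n = 2) or with the vector for which no guide is named (control vector, n = 1), and all were selected with puromycin. Whether the cells were cloned after selection is not stated in the labels, and Kdm1a encodes LSD1, a histone demethylase that works with corepressors. The libraries held 44667861 counts (sg1), 51066078 counts (sg2) and 43424212 counts (control).

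Hox genes encode homeodomain transcription factors that give cells along the body axis their position. They lie in 4 clusters, and paralogue numbers run along each cluster from genes used towards the head to genes used towards the tail, which in the embryo are switched on in that order. Polycomb proteins keep clusters silent and trithorax proteins keep them active, retinoic acid and Cdx factors switch on parts of them, and Pbx and Meis proteins are DNA-binding partners of Hox proteins. In the lung, Hoxa5 and Hoxb5 are known for their roles in airway development. Micro-RNA genes of the miR-10 and miR-196 families lie inside the clusters.

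The sequences of these micro-RNAs are shown because their genes lie among the Hox genes and a known target of miR-196a, Hoxb8, is a member. They are the mature forms from RefSeq (GRCm38.p6), 5′ to 3′, with the seed (bases 2 to 8) in capitals, and they fall into groups by shared seed.
miR-196a-5p: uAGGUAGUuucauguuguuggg
miR-196b-5p: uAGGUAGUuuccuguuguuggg
miR-10a-5p: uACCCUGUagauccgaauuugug
miR-10b-5p: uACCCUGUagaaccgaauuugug
The first is made from Mir196a-1 in HoxB (11, 96265187 to 96265208, plus strand) and from Mir196a-2 in HoxC, and miR-10a-5p from Mir10a in HoxB (11, 96317186 to 96317208, plus strand). Mir196b lies in HoxA and Mir10b in HoxD. MiR-196a is known in mouse to direct cleavage of the Hoxb8 transcript. In the longest 3′ UTR of Hoxb8 in GENCODE vM1, the window with most bases in common with the full complement of miR-196a-5p had 21 of 22. It is shown with the shared bases in capitals.
Hoxb8 site: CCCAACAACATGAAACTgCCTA
The difference from the full complement was A5G, counted from the 5′ end of the micro-RNA, with the complement's base first. The best windows of the other 38 Hox genes shared 10 to 15 bases, and the highest number in 19729 genes outside the clusters was 17. A match of letters is a description and shows no pairing in these cells.

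The libraries fell into a common pattern and a difference between guides. In all 3 libraries the Hox transcripts came mainly from 8 contiguous HoxB genes, Hoxb2 to Hoxb9. The other 31 members, all 29 of HoxA, HoxC and HoxD among them, had 0 counts in the control, and 10 of the 39 had 0 counts in every library. Of the 31, 13 had at least 1 count with sg1 and 19 with sg2, 11 of them with both guides. HoxB genes took 99.8% of the Hox counts with sg1 (95% exact interval 99.8 to 99.9), 91.5% with sg2 (91.3 to 91.7) and all of them in the control. HoxD genes took 0.0260% with sg1 (0.0138 to 0.0444), 8.35% with sg2 (8.12 to 8.58) and 0% in the control, where 0 of 36536 Hox counts allows up to 3 counts. Intervals here and below take in counting error alone: PCR copies were not marked, so a read need not be a separate molecule.

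**Figure D1:**
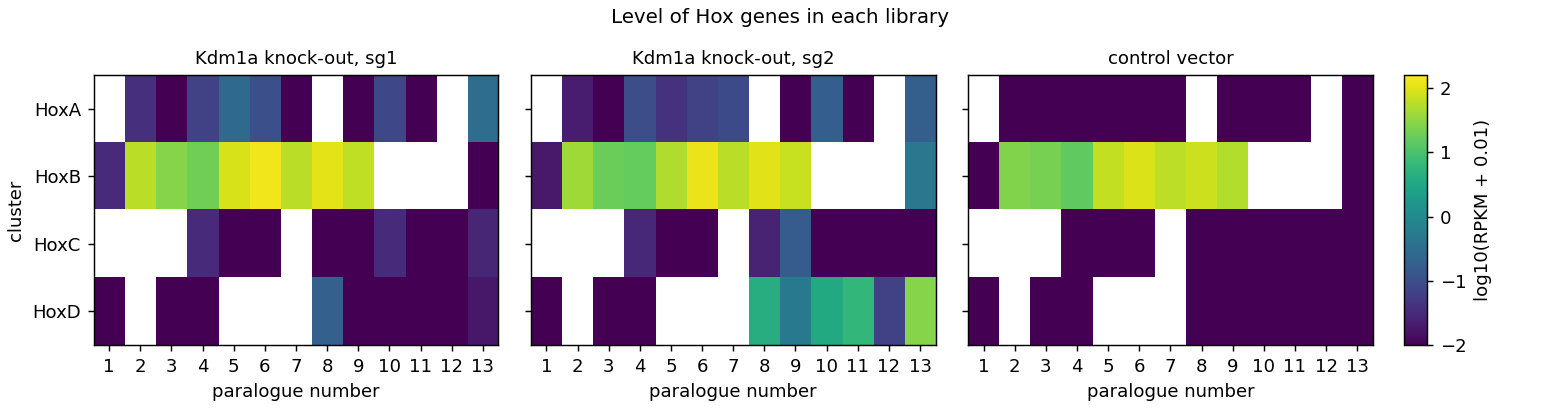
Level of Hox genes as log10(RPKM + 0.01) by cluster (rows) and paralogue number (columns), with a panel each for sg1, sg2 and the control; white cells are paralogues that do not exist in that cluster or are not shown. Hoxb2 to Hoxb9 are bright in every panel, and Hoxd8, Hoxd10, Hoxd11 and Hoxd13 are brighter in the sg2 panel than in the others, led by Hoxd13 at 27.6 RPKM.

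Of the 39 members, 17 passed the filter on low counts and were tested, and 22 were not. The test was edgeR's quasi-likelihood test of both guides against the control, with Benjamini-Hochberg adjustment over 15936 genes. Hoxd8 rose and 0 members fell, where over all genes 6.33% were called higher and 1.7% lower, so the share of Hox genes called was near the background. At an unadjusted p under 0.05 there were 6 members, all higher, and 0 lower, where 12% of all genes tested were higher. DESeq2 called 2 members higher of 1322 genes in all, limma-voom 0 of 513, and neither called a member lower. Of the 17 tested, 9 had 0 counts in the control and passed the filter through the knock-out libraries; among all 600 such genes tested, 43.5% were called higher. A gene's own spread in this test comes from the pair of guides, with 1 residual degree of freedom. It was moderated towards that of all genes tested, with 11.5 prior degrees of freedom, so most of its weight was borrowed from other genes. The lone control is assumed to vary like the guides. Separate cultures are not stated beyond the separate infections, so the spread between guides may in part be technical.

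The targeted gene was read as a check of the labels. Kdm1a had 3950 counts with sg1, 5716 with sg2 and 11468 in the control. The level was 0.331 of the control with sg1 (95% counting interval 0.319 to 0.343) and 0.427 with sg2 (0.414 to 0.441), and the test missed the threshold (log2 fold change -1.40, adjusted p = 0.0537). The defining markers of neuroendocrine cells were present, all 10 of 10 with counts in every library, and summed to 2935 CPM (sg1), 2076 CPM (sg2) and 4260 CPM (control), where CPM are counts scaled to a common effective library size. Of these 10, 1 was called higher (Calca, adjusted p = 0.0476) and 2 lower (Neurod1, adjusted p = 0.00362, and Chga, adjusted p = 0.0455), with 7 at an unadjusted p under 0.05 and a median log2 fold change of -1.01. In the mesenchyme and fibroblast list 7 of 11 tested markers passed as higher (Vim, Prrx1, Col1a1, Col3a1, Pdgfra, Pdgfrb and Twist1) and 0 as lower. Its 12 genes summed to 933 CPM (sg1), 1036 CPM (sg2) and 25.4 CPM (control). Of the 12, 5 were at 0 in the control, with Lum at 0 in every library and Col1a2 at 15, 6 and 0 counts. In the endothelial list 1 of 3 tested markers, Kdr, was higher (10.6, 24.9 and 0.530 CPM in sum, in the same order). Kdr gave most of the sums with the guides, at 9.59, 24.3 and 0.208 CPM. Pecam1 had 21, 1 and 7 counts, Tek 23, 16 and 7, and Cdh5 1, 11 and 0. In the immune list 0 of 2 tested passed with edgeR, DESeq2, limma-voom or limma-trend, 0 at an unadjusted p under 0.05 (10.01, 6.29 and 4.89 CPM in sum, with Adgre1 at 0 in every library). In the alveolar and club list 2 of 6 were higher (Sftpb and Sftpa1) and 1 lower (Cyp2f2), with sums of 778, 645 and 624 CPM. Most of these sums came from Nkx2-1, at 724, 623 and 622 CPM, which did not pass. In the same order Sftpb had 1166, 910 and 4 counts, Sftpa1 141, 66 and 0, and Cyp2f2 0, 0 and 37. Sftpc had 1061, 109 and 30 counts and did not pass. The part of other cell types in the Hox levels was not tested, and in bulk RNA fewer cells of a type and less RNA per cell cannot be told apart.

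The HoxB genes that were on in the control kept the same leading members with both guides. Levels are given as RPKM, reads scaled by gene length and sequencing depth, as deposited, so that genes can be compared per length. Over Hoxb2 to Hoxb9 they ranged from 19.3 to 127 RPKM with sg1, 16.1 to 119 RPKM with sg2 and 15.1 to 96.6 RPKM in the control. Hoxb6 was the highest and Hoxb8 the next in every library, and Hoxb3 and Hoxb4 were the lowest. The gene models of Hoxb3 and Hoxb4 overlap by 3372 bases, so their reads may be shared or lost, and their low rank is uncertain. The middle of the order differed between libraries. Hoxb5 came next after Hoxb8 with sg1 and in the control, and below Hoxb9 and Hoxb7 with sg2. Hoxb9 was above Hoxb7 with both guides and below it in the control. The level did not follow paralogue number along the cluster. With 1 library per guide and 1 control, these orders have no spread of their own.

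**Figure D2:**
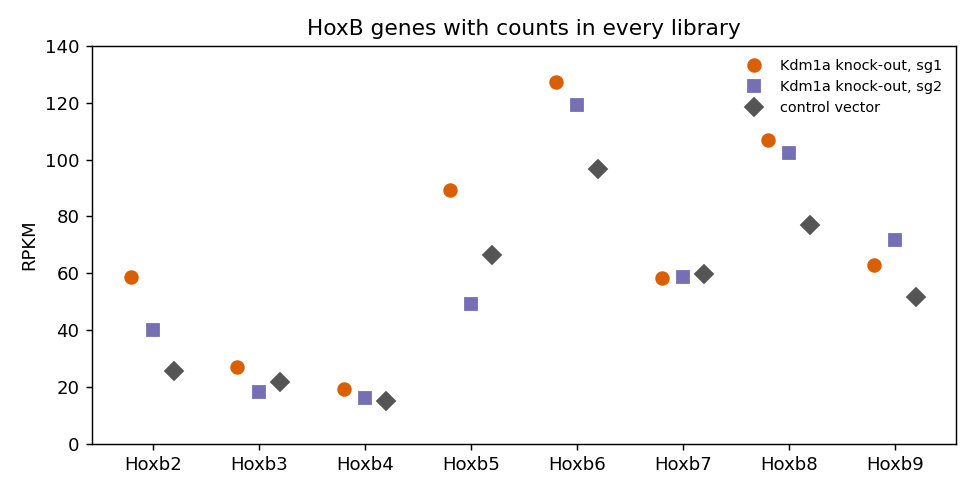
RPKM of Hoxb2 to Hoxb9 (x axis) in the sg1, sg2 and control libraries, 1 point per library. Hoxb6 is highest in each library, at 127, 119 and 96.6 RPKM, and the control point lies below both guides for Hoxb2, Hoxb4, Hoxb6, Hoxb8 and Hoxb9.

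Among the anterior genes of HoxB, Hoxb2, a regulator of hindbrain segments, moved most. It had 4301 counts with sg1, 3369 with sg2 and 1837 in the control, or 80.9 ± 20.3 CPM in the knock-out (SD, n = 2) and 42.4 CPM in the control. Both guides lay above the control, by 2.25-fold with sg1 (95% counting interval 2.13 to 2.38) and 1.57-fold with sg2 (1.49 to 1.67). The log2 fold change was 0.93 (SE 0.459) and did not pass (edgeR adjusted p = 0.315). Hoxb2 was the 1 member in the authors' deposited list of 1833 higher genes, and their list of 2154 lower genes held 0 members. The expression table held 24523 genes and 39 members, so these counts are not read as a result about Hox genes. Hoxb3, which acts in hindbrain and pharyngeal patterning, had 4532 counts with sg1, 3502 with sg2 and 3533 in the control. The guides lay on different sides of the control, at 1.23-fold with sg1 (1.18 to 1.29) and 0.850-fold with sg2 (0.811 to 0.891). Hoxb1 had 2 counts with sg1, 1 with sg2 and 0 in the control, although it is the neighbour of Hoxb2.

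The central HoxB genes, Hoxb4 to Hoxb8, held most of the Hox RNA. Hoxb4, known for expanding blood stem cells, had 2232, 2134 and 1697 counts in sg1, sg2 and control. Hoxb5 had 7644 counts with sg1, 4820 with sg2 and 5508 in the control. It was 1.33-fold the control with sg1 (1.29 to 1.38) and 0.750-fold with sg2 (0.722 to 0.780), so that the control lay between the guides. Hoxb6 had 7579 counts with sg1, 8138 with sg2 and 5591 in the control, at 164 ± 4.94 CPM in the knock-out and 129 CPM in the control. Hoxb7 had 3339, 3834 and 3321 counts, and its levels of 74.0, 75.8 and 76.6 CPM in sg1, sg2 and control lay within counting error of each other: the ratio to the control was 0.966 with sg1 (0.920 to 1.01) and 0.990 with sg2 (0.945 to 1.04). Hoxb8, which can hold myeloid progenitors in an immature state, had 12736 counts with sg1, 13954 with sg2 and 8925 in the control. Its level was 279 ± 4.41 CPM in the knock-out and 206 CPM in the control, 1.37-fold with sg1 (1.33 to 1.41) and 1.34-fold with sg2 (1.31 to 1.38).

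Hoxb9, the most posterior gene of the active stretch, had 7648 counts with sg1, 9982 with sg2 and 6124 in the control, and was 1.20-fold the control with sg1 (1.16 to 1.24) and 1.40-fold with sg2 (1.35 to 1.44). Over the 8 genes, 7 lay above the control by more than counting error with sg1, and 5 above and 2 below with sg2. None of the 8 passed edgeR's test. Their log2 fold changes ran from -0.03 to 0.93 with SEs of 0.412 to 0.459, and their adjusted p from 0.315 to 0.984, where all genes tested had a median log2 fold change of 0.06; DESeq2, limma-voom and limma-trend called 0 of the 8, and 0 had an unadjusted p under 0.05. The median log2 fold change of genes on chromosome 11, where HoxB lies, was 0.07 with sg1 and 0.18 with sg2. Over the 18 tested genes outside the cluster and within 500 kb of it, the median was 0.40 with sg1 and 0.83 with sg2.

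**Figure D3:**
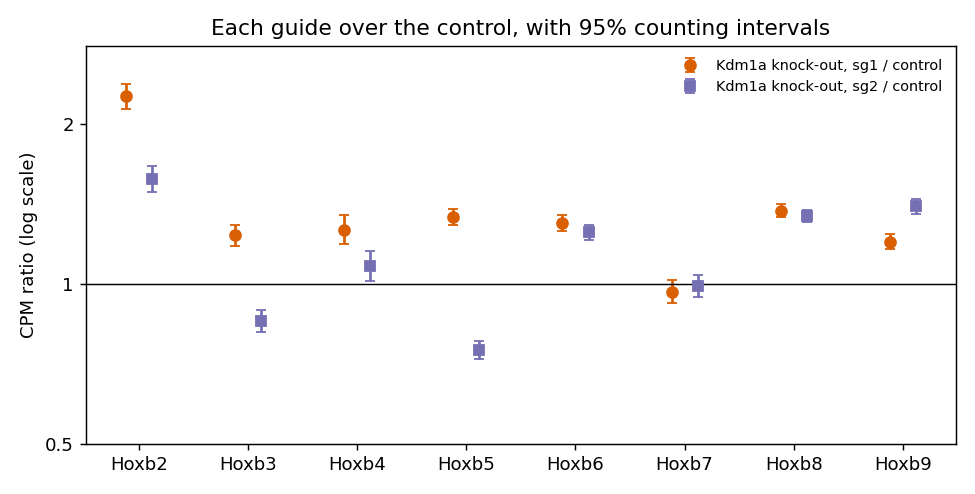
Ratio of CPM (log scale) of each guide to the control for Hoxb2 to Hoxb9; bars are 95% counting intervals and do not include the spread between replicates. Hoxb2 is highest with both guides (2.25 and 1.57), and the guides lie on opposite sides of 1 for Hoxb3 and Hoxb5.

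Summed over HoxB, the level was 550 RPKM with sg1, 476 RPKM with sg2 and 414 RPKM in the control, which is 1.33 times the control with sg1 and 1.15 times with sg2. By class, anterior genes (paralogues 1 to 3) of all clusters summed to 85.6 RPKM with sg1, 58.3 RPKM with sg2 and 47.4 RPKM in the control. Central genes (4 to 8) summed to 402, 350 and 315 RPKM in the same order. Posterior genes (9 to 13) summed to 63.2 RPKM with sg1, 110 RPKM with sg2 and 51.8 RPKM in the control. The posterior share of the Hox RPKM was 11.5% with sg1, 21.3% with sg2 and 12.5% in the control, so sg2 stood apart from the other libraries.

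The posterior genes that set sg2 apart lie in HoxD on chromosome 2. Hoxd13, the gene at the 5′ end of the cluster, which patterns digits and the urogenital tract (74668225 to 74671603), had 1 count with sg1, 3538 with sg2 and 0 in the control. With sg2 its level was 70.0 CPM, at least 1011-fold above the limit of 3 counts in the control, 0.0692 CPM, and 3158-fold above sg1 (95% counting interval 566 to 124760). At 27.6 RPKM it exceeded Hoxb3 (18.2 RPKM) and Hoxb4 (16.1 RPKM) in the same library. Hoxd11, which shapes the forearm and kidney with Hoxa11, had 0 counts with sg1, 315 with sg2 and 0 in the control, and Hoxd10, a regulator of lumbar motor neurons, had 0, 322 and 0. These lie at least 90.0-fold and 92.0-fold above the control's limit with sg2; the gene models overlap by 2744 bases, so their reads may be shared.

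Hoxd8 (74704615 to 74707933) had 12 counts for sg1, 305 for sg2 and 0 in the control, and the other HoxD gene with a read for sg1 was Hoxd13, with 1. It was at least 3.84-fold above the control's limit with sg1 and at least 87.2-fold with sg2, and 22.7-fold higher with sg2 than with sg1 (12.8 to 44.4). It passed edgeR's test (adjusted p = 0.0338), and Hoxd13 did not (adjusted p = 0.0653). In 10 other analyses the call of Hoxd8 was lost 6 times (adjusted p ranged between 1.09e-05 and 0.547), and Hoxd13 passed 2 times. Hoxd9 had 0, 53 and 0 counts in sg1, sg2 and control, and Hoxd12 had 0, 7 and 0. Hoxd12 thus gave 0.0539 RPKM with sg2 between neighbours at 27.6 RPKM (Hoxd13) and 6.04 RPKM (Hoxd11). Hoxd1, Hoxd3 and Hoxd4, with the lowest paralogue numbers of the cluster, had 0 counts in every library, and the nearest of them, Hoxd3, starts 4.06 kb from the end of Hoxd8.

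The genes on either side of HoxD were read in all libraries or in almost none. Evx2, a homeobox gene 6.70 kb from Hoxd13, had 0 counts with sg1, 2 with sg2 and 0 in the control. Lnpk, an endoplasmic reticulum protein gene on the Hoxd13 side, had 2022, 2295 and 2248 counts in sg1, sg2 and control, and the mitochondrial import gene Mtx2, beyond Hoxd1, had 2109, 3118 and 2010. Mtx2 was 1.01-fold the control with sg1 (0.948 to 1.07) and 1.33-fold with sg2 (1.26 to 1.41). Neither passed edgeR's test (adjusted p = 0.88 and 0.869), and the median log2 fold change of chromosome 2 was 0.05 with sg1 and 0.04 with sg2. Among all genes listed, 4 had 0 control counts, at most 1 count with sg1 and at least 300 with sg2. They were Hoxd10, Hoxd11, Hoxd13 and Rhox5, an X-linked homeobox gene with 0, 672 and 0 counts; this set was chosen after the values were seen.

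**Figure D4:**
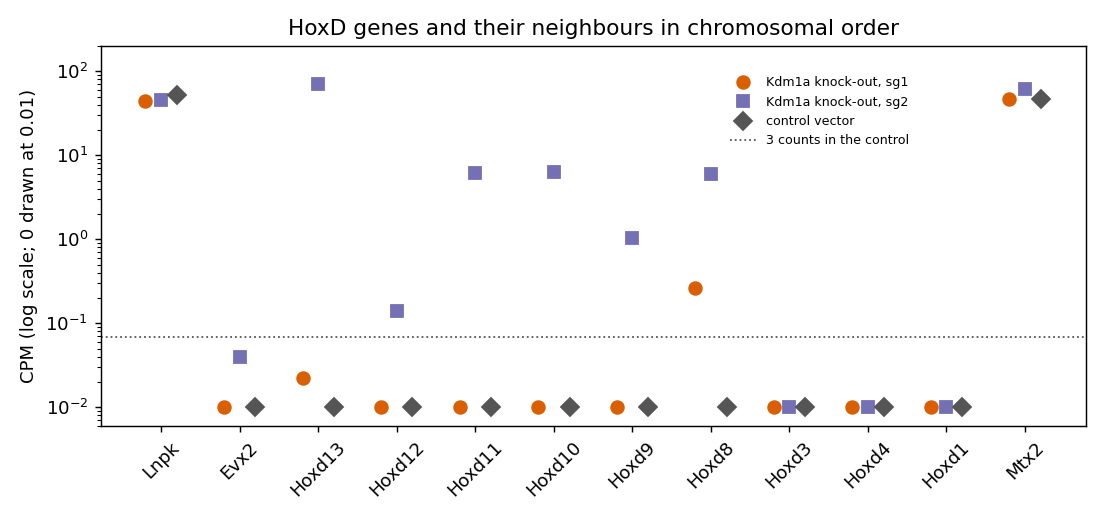
CPM (log scale, 0 drawn at 0.01) of the HoxD genes and the neighbours Lnpk, Evx2 and Mtx2 in chromosomal order, 1 point per library; the dotted line is 3 counts in the control. Of the HoxD genes, Hoxd13 to Hoxd8 are above the line with sg2 and Hoxd8 alone with sg1, and Hoxd3, Hoxd4 and Hoxd1 are at 0 in every library.

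Promoter sequence is shown for Hoxd8, the member that passed, for Hoxd13, the HoxD gene with the most reads, and for Hoxb8, the HoxB gene with the most reads; Hoxd13 and Hoxb8 were chosen after their values were seen. Each is the 250 bases before a RefSeq transcript start (GRCm38.p6, plus strand). Matches on either strand to TTTATNG, a motif of Cdx factors, or AGGTCA, the half-site of retinoic acid receptors, are in capitals. The Hoxb8 window lies inside the span of its gene model (96279401 to 96285325), and those of Hoxd13 and Hoxd8 end just before theirs.
Hoxd13 (chr2:74667975-74668224): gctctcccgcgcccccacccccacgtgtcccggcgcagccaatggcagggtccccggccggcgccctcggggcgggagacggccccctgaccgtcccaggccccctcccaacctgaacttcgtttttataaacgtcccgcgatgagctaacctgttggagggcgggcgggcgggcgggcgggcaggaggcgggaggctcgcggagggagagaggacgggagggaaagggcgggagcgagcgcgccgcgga
Hoxd8 (chr2:74704365-74704614): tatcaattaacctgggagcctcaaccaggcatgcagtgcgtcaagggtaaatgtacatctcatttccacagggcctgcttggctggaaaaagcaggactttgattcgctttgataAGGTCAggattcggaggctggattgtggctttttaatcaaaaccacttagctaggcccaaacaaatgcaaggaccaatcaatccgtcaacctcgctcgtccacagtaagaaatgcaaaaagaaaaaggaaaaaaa
Hoxb8 (chr11:96281655-96281904): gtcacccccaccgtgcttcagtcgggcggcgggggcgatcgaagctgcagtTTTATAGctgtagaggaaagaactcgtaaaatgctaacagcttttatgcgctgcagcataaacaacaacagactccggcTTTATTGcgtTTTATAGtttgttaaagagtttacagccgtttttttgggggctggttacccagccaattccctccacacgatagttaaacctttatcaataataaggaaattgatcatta
Hoxd13 held 31 CpG pairs, Hoxb8 12 and Hoxd8 6, where the median over 32851 promoters was 6. TTTATNG was found in 9.81% of all these windows, and in 2 of 22 Hox genes with a promoter in the table (Hoxb8 and Hoxd4). AGGTCA was found in 14.02% of all and in 6 of the 22 (Hoxb4, Hoxc4, Hoxd10, Hoxd3, Hoxd4 and Hoxd8). The percentages count windows, and the Hox figures count genes with a match in any of their windows. Hoxa10 and Hoxd11 had several windows, so these are not quite the same measure.

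HoxA genes gave a few reads in the knock-out libraries and 0 in the control. Summed over the 11 genes there were 63 counts with sg1, 67 with sg2 and 0 in the control, and no gene exceeded 22 counts with sg1 or 28 with sg2. Hoxa10, known from the uterus and limb, had 10 counts with sg1, 28 with sg2 and 0 in the control, at least 3.203-fold and 8.004-fold above the control's limit. Hoxa13, a hindgut and limb gene, had 18, 12 and 0. Hoxa5, the lung gene, had 22 counts with sg1, 3 with sg2 and 0 in the control. None of these passed edgeR's test (adjusted p = 0.187, 0.229 and 0.319), and all lay below 1 CPM in every library. Hoxa2, Hoxa4, Hoxa6 and Hoxa7 had at most 8 counts in any library, and Hoxa3, Hoxa9 and Hoxa11 had 0 in every library. Against these, Hoxb13 at the far end of HoxB had 0 counts with sg1, 31 with sg2 and 0 in the control (adjusted p = 0.373).

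HoxC was almost silent. Its 9 genes summed to 6 counts with sg1, 18 with sg2 and 0 in the control, and 14 of the 18 were from Hoxc9. Hoxc5, Hoxc6, Hoxc11 and Hoxc12 had 0 counts in every library, and so had the non-coding gene Hotair inside the cluster. The chromosome of this cluster, 15, had a median log2 fold change of 0.34 for sg1 and 0.32 for sg2, above the 0.02 and 0.05 over all genes tested.

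With each guide taken alone, the number of tested members at least 2-fold from the control differed. For sg1 5 of 17 were higher (Hoxa5, Hoxa10, Hoxa13, Hoxb2 and Hoxd8), where 16.8% of all genes tested were, and 0 were lower, against 8.29%. For sg2 9 of 17 were higher (Hoxa5, Hoxa10, Hoxa13, Hoxb13 and 5 HoxD genes), where 19.2% of all were, and 0 lower, against 16.6%. Between guides, 7 of 17 were at least 2-fold higher with sg2 than with sg1 and 1, Hoxa5, lower, where 7.26% and 11.3% of all genes were. These folds used a prior count of 2 and have no test, and genes with 0 control counts reach the filter through the libraries in which they are read. Hoxa5 with sg2, at 3 counts (0.0593 CPM), was below the control's limit of 0.0692 CPM, so its place among the 9 rests on the prior count.

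At the posterior end of HoxB a non-coding gene rose, and the coding genes beside it did not pass the test. Gm53, a long non-coding RNA gene between Hoxb9 and Hoxb13 (96251660 to 96264484), had 145 counts with sg1, 271 with sg2 and 8 in the control. Its level was 4.29 ± 1.52 CPM in the knock-out and 0.184 CPM in the control, 23.2-fold higher (log2 fold change 4.52, SE 1.03, edgeR adjusted p = 0.0148), and it was chosen by position after its values were seen. The call was lost with limma-voom and with limma-trend on log2(RPKM + 1), with adjusted p up to 0.0998. Mir196a-1, 0.679 kb from Gm53 and 6.06 kb from Hoxb9, had 30 counts with sg1, 35 with sg2 and 1 in the control, a pooled ratio of 29.5 (95% counting interval 5.10 to 1181) that missed the threshold (adjusted p = 0.169, and it passed in 1 of 9 other analyses). Mir10a, inside the span of Hoxb3, had 24, 14 and 24 counts (adjusted p = 0.917). Reads on these hairpin rows come from libraries of long RNA and do not measure the mature micro-RNA shown above. Mir10b, Mir196b, Mir196a-2 and Mir615 had 0 counts in every library. Hoxb8, whose 3′ UTR holds the site shown above, was not lower with either guide.

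Of the 22 protein-coding neighbours of the clusters in the list, 20 were tested and 0 passed edgeR's test. DESeq2, limma-voom and limma-trend called 0 of them, and 0 had an unadjusted p under 0.05 with edgeR. Their median log2 fold change was 0.45, against 0.06 over all genes tested. The largest fold change was that of Nfe2, with 11, 9 and 1 counts in sg1, sg2 and control. Next was Skap2 (log2 0.87, edgeR adjusted p = 0.596). Within 500 kb of the outer genes, 4 of 18 tested genes beside HoxB were called higher: Igf2bp1, an RNA-binding protein of fetal tissues, with 151, 558 and 0 counts in sg1, sg2 and control, Copz2, a coatomer subunit, with 212, 311 and 5, and Abi3 and Phospho1. Beside HoxC 1 of 18 was, the integrin subunit gene Itga5 with 1669, 1905 and 0 counts. Beside HoxA and HoxD 0 of 3 and 0 of 2 were. Over all genes tested 6.33% were called higher. Igf2bp1, Abi3, Phospho1 and Itga5 had 0 counts in the control, and of all tested genes at 0 there 43.5% were called higher. An effect of position was not tested. The call of Copz2 was lost in 2 of 10 other analyses, those of Igf2bp1 and Phospho1 in 3 and that of Abi3 in 5, and that of Itga5 in 1 of 9. These genes were chosen by position after the lists.

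Regulators of Hox genes were then read from lists of the pathway. In the list of Cdx and retinoid genes 4 of 20 tested were higher and 1 lower, with a median log2 fold change of 0.03. At an unadjusted p under 0.05 with edgeR there were 8. Over all genes tested 6.33% were higher and 1.7% lower. Of the 4, Rarg had 0 counts in the control, and 43.5% of all such genes tested were called higher. Cdx2, a homeobox factor that switches on central and posterior Hox genes in the embryo, had 506 counts with sg1, 1460 with sg2 and 7745 in the control. It fell to 20.0 ± 12.5 CPM in the knock-out, against 179 CPM in the control (log2 fold change -3.15, SE 0.517, edgeR adjusted p = 0.00175), and Cdx1 and Cdx4 had 0 counts in every library. Rarg, a retinoic acid receptor, had 1352 counts with sg1, 2242 with sg2 and 0 in the control, at least 537-fold higher (37.1 ± 10.2 CPM in the knock-out; adjusted p = 3.40e-05). Cyp26b1, which breaks down retinoic acid, had 260, 111 and 1 counts, a pooled ratio of 168 (30.0 to 6658; adjusted p = 0.00518). Dhrs3, a retinal reductase, rose 15.1-fold (374, 1205 and 46 counts; adjusted p = 0.00856). Rarb, a receptor gene that retinoic acid itself induces, rose 4.55-fold (816, 1132 and 193 counts; adjusted p = 0.0334), a call lost in 5 of 10 other analyses. The largest log2 fold changes among members that did not pass went both ways. Cyp26a1 (-1.59), Aldh1a2 (-1.49, edgeR adjusted p = 0.0907) and Crabp1 (-1.37) were lower, and Rara (1.30) was higher. The calls of Rarg and Cdx2 were lost with limma-trend on log2(RPKM + 1), that of Dhrs3 also with limma-voom, and that of Cyp26b1 with limma-voom and both limma-trend settings.

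**Figure D5:**
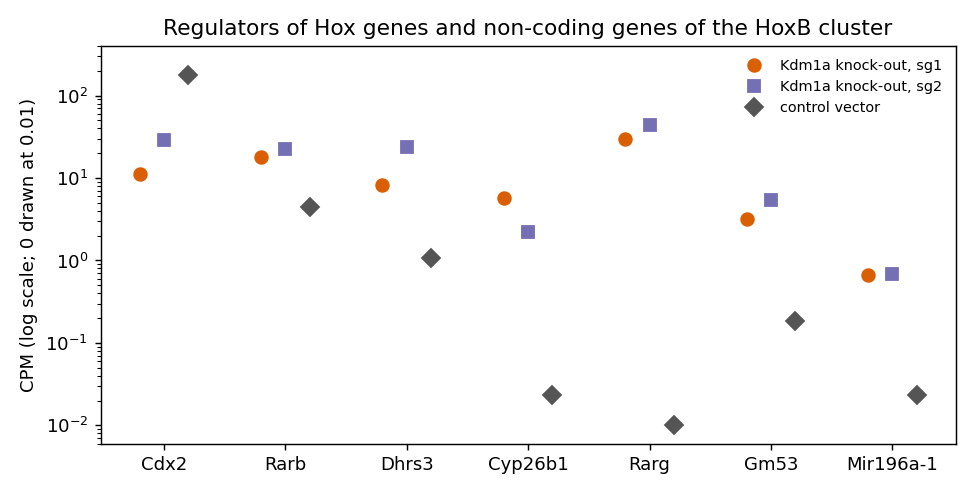
CPM (log scale, 0 drawn at 0.01) of the Cdx and retinoid genes that passed the test, and of Gm53 and Mir196a-1 in HoxB, 1 point per library. Cdx2 is lower with both guides (11.2 and 28.9 CPM) than in the control (179 CPM), and the other genes are higher with both guides.

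Partners of Hox proteins and chromatin regulators of the clusters gave 0 calls. Of 9 Pbx, Meis and Pknox genes 0 passed edgeR's test and 1, Meis1, had an unadjusted p under 0.05. Meis1 had 144 counts with sg1, 174 with sg2 and 475 in the control, or 3.32 ± 0.177 CPM in the knock-out and 10.95 CPM in the control (log2 fold change -1.72, SE 0.599, adjusted p = 0.116). Pknox2 had 1698, 1438 and 720 counts (log2 fold change 0.99, adjusted p = 0.315). Of 30 Polycomb genes and 15 trithorax and H3K27 demethylase genes 0 passed, with 0 at an unadjusted p under 0.05; the largest fold changes were those of Pcgf5 (log2 1.01, adjusted p = 0.329), Phf19 (log2 0.93, adjusted p = 0.359), Kmt2c (log2 -1.07, adjusted p = 0.287) and Kmt2a (log2 -0.63, adjusted p = 0.55). DESeq2, limma-voom and limma-trend called 0 genes of the 3 lists. Their median log2 fold changes were -0.06, 0.05 and -0.25, against 0.06 over all genes. Of the ParaHox and Evx genes, Gsx1 had 6, 46 and 165 counts in sg1, sg2 and control (adjusted p = 0.136) and Pdx1 had 86, 0 and 20 (adjusted p = 0.849), and 0 of 2 tested passed edgeR's test, with 1 at an unadjusted p under 0.05 and 0 by DESeq2, limma-voom or limma-trend.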

How the data were processed

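The submitters' processing notes name HTSeq 0.6.1, Bowtie2 2.2.3 and TopHat2 2.0.12, with mm10 as the build. Whether counting used strand, or kept multiply mapped reads, is not given in the sources used here, so counts of Hox genes whose models overlap are uncertain. The deposited table holds raw read counts per gene, and per the file headers RPKM beside them. The authors' deposited lists of higher and lower genes, per the file headers with a fold change, were used for membership only.

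Counts were tested with edgeR 4.0.16 (R 4.3.3): TMM factors, filterByExpr, quasi-likelihood F test of Kdm1a knock-out (n = 2) against control (n = 1), adjusted p under 0.05; 8587 genes were not tested. CPM use effective library sizes. A count of 0 was taken as up to 3 counts per library. Ratios of libraries carry 95% exact counting intervals. Alternatives used DESeq2 1.42.0 and limma 3.58.1; limma-trend was run on log2 RPKM with pseudocounts of 1 and 0.1. The fit was tested on simulated data. Positions are GRCm38, matched by Entrez identifier for 24418 genes.

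Members and lists were chosen with earlier results of these data known. All members are counted; not every gene is reported here by name. Those at 1 CPM or more in any library, or passing the test, get their counts. Of each list, called genes are named, at most 6, or the 2 largest fold changes. Micro-RNA genes outside the clusters that share the start of a name were left out. Protein sequences were not used here.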

Additional observations from a re-analysis of the deposited data

How the results depend on the processing

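Of 10 other analyses, 4 kept Hoxd8 past the threshold. The number of Hox genes called higher was 1 with edgeR's test, and 0 with upper-quartile factors, library totals alone, a mean count of at least 50, limma-voom and limma-trend on log2(RPKM + 1) or log2(RPKM + 0.1). It was 2 with the DESeq2 Wald test (Hoxd8 and Hoxd13) and 4 with no filter (Hoxd8, Hoxd10, Hoxd11 and Hoxd13). With DESeq2 the log2 fold change of Hoxd13 was 24.7, against 13.7 with edgeR. Hoxd10 and Hoxd11, also read with sg2 alone, did not pass the DESeq2 Wald test (adjusted p = 0.447 and 0.449). In every analysis 0 Hox genes were called lower. Over all genes, limma-voom called 513 higher, and limma-trend 27 higher and 4 lower with a pseudocount of 1, and 606 and 73 with 0.1, against 1008 higher and 271 lower with edgeR. The number lower was 178 with library totals alone, 180 with a mean count of at least 50 and 511 with no filter. The cause was not tested. Hoxb5 turned to a log2 fold change of -0.0013 with limma-voom, from 0.06. Leaving out a guide leaves 1 library against 1, so counts of calls have no value there. The HoxB sum over the control was 1.15 to 1.33 with a guide left out, and 1.24 with CPM in place of RPKM. The log2 fold change of Hoxd13 was 3.14 without sg2 and 14.68 without sg1, that of Hoxd8 6.57 and 11.15, and those of Hoxb13, Hoxd9, Hoxd10 and Hoxd11 were 0 without sg2. Hoxd13 and Hoxd8 had 0 counts in the control, so the size of their values rests on the small prior count that the fit adds. With sg1 Hoxd13 had 1 count, below the control's limit of 3 counts, so 3.14 does not show a rise. Hoxd8 had 12 counts with sg1, at least 3.84-fold above that limit. No paired analysis was possible because the groups share fewer than 2 replicate numbers. A change confined to counts below 3 per library was not detectable at this depth.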
